A study of Mus musculus with 8 samples.

Results

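The genes described are the 10 that encode the transforming growth factor beta (TGF-beta) ligands Tgfb1, Tgfb2 and Tgfb3, the receptors Tgfbr1, Tgfbr2 and Tgfbr3, and the intracellular messengers Smad2, Smad3, Smad4 and Smad7. They were picked by symbol from 22180 genes with a probe set of their own on an Affymetrix whole-transcript array of mouse liver, and each had exactly 1 probe set with a single symbol. All 10 lay above a filter on dim genes at 2.72 log2, so all were tested. The rilpivirine group held 4 liver samples of wild-type C57BL/6 mice labelled with non-alcoholic fatty liver disease plus rilpivirine, given by mouth every day at a dose matched to that of patients. The control group held 4 liver samples of the same strain labelled with non-alcoholic fatty liver disease alone. Rilpivirine is an anti-HIV drug that blocks reverse transcriptase without being a nucleoside. The labels mention both a normal and a high-fat diet without assigning either to a sample, and do not tie each sample to its own animal, so the spread behind every p-value below may be technical.

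TGF-beta ligands are secreted in a latent form and, once released, bind the type II receptor TGFBR2, which then activates the type I receptor TGFBR1. TGFBR3, also called betaglycan, is a coreceptor that presents the ligands, TGF-beta 2 above all. The activated type I receptor phosphorylates SMAD2 and SMAD3, which join SMAD4 and act in the nucleus, while SMAD7 is induced by the signal and inhibits it at the receptor. In the liver the pathway is known as a main driver of stellate cell activation and matrix deposition, and macrophages, endothelial cells and platelets are among its sources.

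None of the 10 transcripts differed between the groups beyond the spread between samples. In limma, a linear model with moderated variances fitted on log2 values over all 16635 genes tested, 0 members passed a Benjamini-Hochberg adjusted p of 0.05 and 0 had an unadjusted p under 0.05. The smallest adjusted p among them was 0.903, for Tgfbr1 and Smad7. Over all genes 0% were called after adjustment, and 5.21% had an unadjusted p under 0.05 (2% higher and 3.21% lower with rilpivirine). The groups overlapped in all 10 members, and they did not overlap in 3.04% of all genes tested (1.3% higher and 1.73% lower). With so low a share over all genes, overlap in all 10 members does not set them apart. Differences are given as rilpivirine minus control: 8 members lay below 0 and 2 above, with a median of -0.091 log2, and 56.9% of all genes tested lay below 0, with a median of -0.028. The 333 genes higher and 534 lower at an unadjusted p under 0.05 became 430 and 449 after a further quantile normalization of the arrays.

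The arrays had medians between 3.33 and 3.45 log2. Rilpivirine replicate 2 stood apart, with a mean correlation of 0.965 with the other arrays against 0.976 to 0.981 for those. It was the lowest of the 8 arrays in 30.2% of the genes tested and the highest in 18.8%, and it was the lowest in 4 of the 10 members and the highest in 0. Averaged over 81 small nucleolar RNA probe sets, the deviation from the 8-array mean was 0.26, 0.49, 0.03 and -0.20 log2 in rilpivirine replicates 1 to 4 and -0.59, 0.27, -0.05 and -0.20 log2 in control replicates 1 to 4. The 6 hepatocyte markers, among them Alb and Ttr, were all above the filter, with a mean level of 12.29 to 12.45 log2 with rilpivirine and 12.33 to 12.53 log2 in controls. Of 8 sinusoidal endothelial markers 8 had higher means with rilpivirine (mean level 7.89 to 8.33 log2, against 7.67 to 8.05 log2 in controls). Of 8 Kupffer cell markers 7 had lower means (6.88 to 7.39 log2, against 7.13 to 7.50 log2 in controls), and so had 7 of the 7 tested markers of monocytes and lipid-associated macrophages (4.34 to 5.16 log2, against 4.83 to 5.30 log2 in controls), with Ccr2 below the filter. Of 10 stellate cell markers 8 had lower means (6.74 to 6.90 log2, against 6.81 to 6.93 log2 in controls). All 5 skeletal muscle markers had higher means (3.77 to 4.23 log2, against 3.72 to 3.97 log2 in controls), and 3 of 4 platelet markers had lower means (3.76 to 4.13 log2, against 3.83 to 4.40 log2 in controls). S100a8, S100a9 and Retnlg of neutrophils and Adipoq of adipocytes were below the filter. The 1 neutrophil marker tested had a higher mean with rilpivirine. Of 3 adipocyte markers tested, 2 had higher means and 1 a lower mean (3.03 to 4.21 log2, against 3.16 to 3.28 log2 in controls). In whole liver, fewer cells of a type and less RNA per cell cannot be told apart, and the part of cell type makeup in the values below was not tested.

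**Figure D1:**
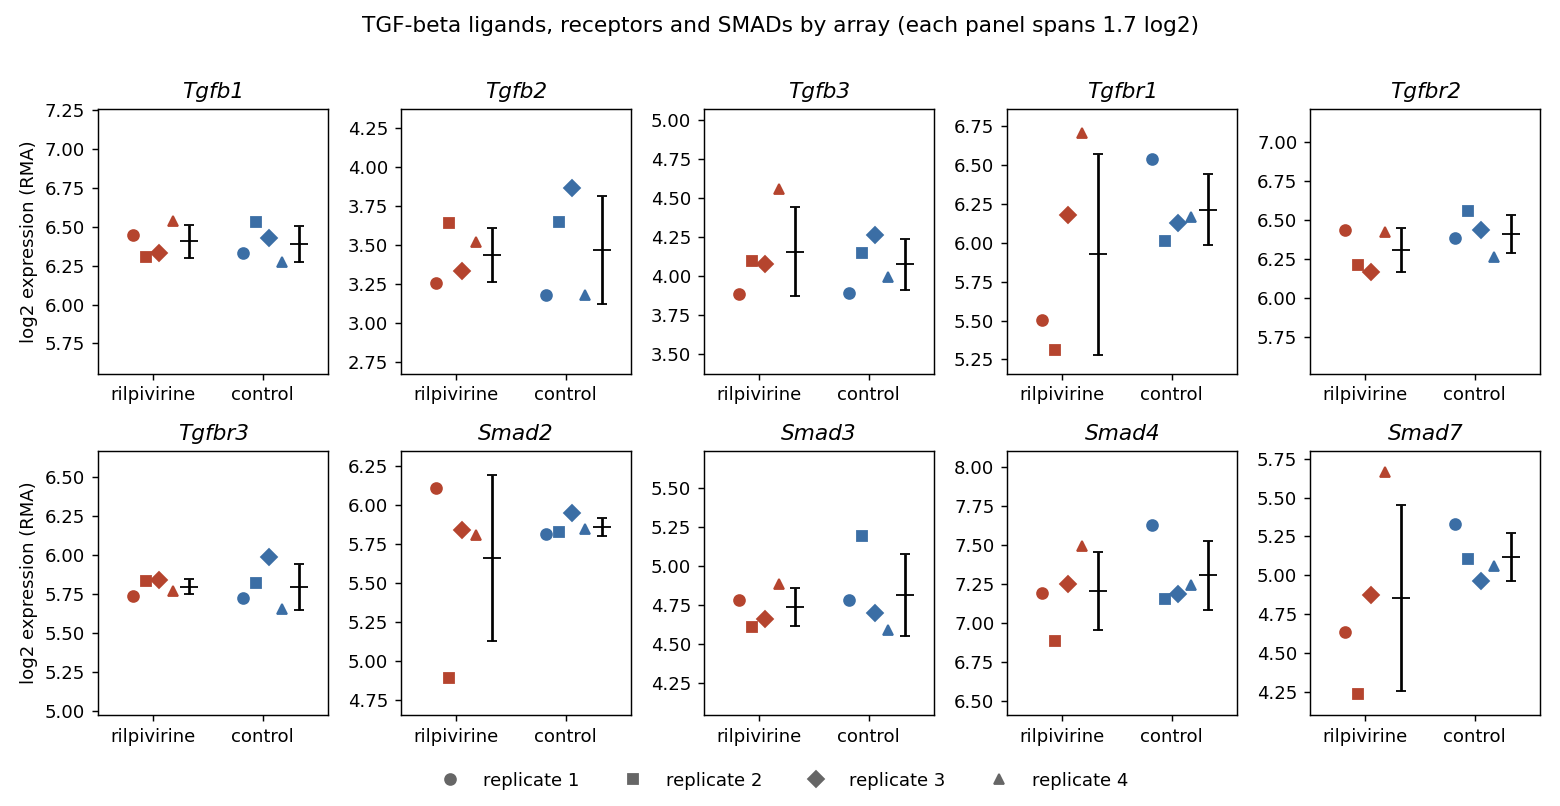
Log2 expression (vertical axis, every panel 1.7 log2 high) of each member in the 4 rilpivirine samples on the left of a panel and the 4 control samples on the right, with the mean and SD as a bar (n = 4 each) and a symbol for each replicate number. Levels of different panels come from different probe sets and are not comparable. The groups overlap in every panel, and the rilpivirine samples spread widest in Tgfbr1, Smad2 and Smad7.

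Among the ligands, Tgfb1 was the steadiest transcript. Tgfb1, the main isoform in the injured liver, measured 6.45, 6.30, 6.33 and 6.54 log2 in the 4 rilpivirine samples, against 6.33, 6.53, 6.43 and 6.27 log2 in the 4 control samples. The 2 sets of values span nearly the same range. The difference was 0.015 ± 0.113 log2 (SE), with a 95% interval of -0.23 to 0.26 whose upper end is a fold of 1.20. Tgfb2, the isoform that depends most on betaglycan for binding, was dim, at 3.25, 3.64, 3.33 and 3.51 log2 with rilpivirine, against 3.18, 3.64, 3.86 and 3.18 log2 in controls. Here the control samples enclosed the whole rilpivirine range, and the difference was -0.031 ± 0.173 log2 (SE), with an interval of -0.41 to 0.35. Tgfb3, the third isoform, measured 3.88, 4.10, 4.08 and 4.56 log2 with rilpivirine, against 3.89, 4.14, 4.26 and 3.996 log2 in controls. Rilpivirine replicate 4 was the highest and replicate 1 the lowest of the 8 samples, and the other rilpivirine samples lay among the controls. The difference of 0.080 ± 0.156 log2 (SE; 95% interval -0.26 to 0.42) turned to -0.054 without that replicate.

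Among the receptors, Tgfbr1 had the widest spread and Tgfbr3 the narrowest. Tgfbr1, the type I receptor kinase that phosphorylates SMAD2 and SMAD3, measured 5.50, 5.31, 6.18 and 6.71 log2 in the rilpivirine samples, against 6.54, 6.01, 6.13 and 6.16 log2 in the control samples. Rilpivirine replicates 1 and 2 were below all controls, replicate 4 was above them, and replicate 3 was among them. The mean was 5.92 ± 0.64 log2 with rilpivirine and 6.21 ± 0.23 log2 in controls (SD, n = 4 each), a difference of -0.29 ± 0.27 log2 (SE; 95% interval -0.88 to 0.31, adjusted p = 0.903 in limma). The interval runs from a fold of 0.542 to one of 1.24. Its range within the rilpivirine group, 1.40 log2, exceeded that of 96.9% of the genes tested, while its control range of 0.53 log2 exceeded that of 75.4%.

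Tgfbr2, the type II receptor that binds ligand first, measured 6.44, 6.21, 6.17 and 6.42 log2 with rilpivirine, against 6.38, 6.56, 6.44 and 6.26 log2 in controls. Rilpivirine replicates 2 and 3 were the lowest samples and control replicate 2 the highest. The difference was -0.10 ± 0.12 log2 (SE; 95% interval -0.36 to 0.16), and it was below 0 in all 18 alternative settings, between -0.15 and -0.031. Some of these settings could not change it: other moderation, other filters, the mean of all probe sets and the replicate number as a block. Tgfbr3, betaglycan, measured 5.74, 5.84, 5.84 and 5.77 log2 with rilpivirine, against 5.73, 5.82, 5.99 and 5.65 log2 in controls. All rilpivirine values lay inside the control range, and their own range of 0.098 log2 exceeded that of only 1.10% of the genes tested. The difference was -0.0012 ± 0.1128 log2 (SE), with an interval of -0.25 to 0.25.

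The receptor-regulated messengers differed in how single samples behaved. Smad2, a direct substrate of the type I receptor, measured 6.11, 4.89, 5.84 and 5.81 log2 with rilpivirine, against 5.81, 5.83, 5.95 and 5.85 log2 in controls. Rilpivirine replicate 2 was far below every other sample and replicate 1 was the highest of all samples. The controls were close together, with a range of 0.13 log2 that exceeded that of only 6.08% of the genes tested. The difference of -0.20 ± 0.22 log2 (SE; 95% interval -0.69 to 0.29) turned to 0.061 without rilpivirine replicate 2. Smad3, the other substrate and the one that binds DNA directly, measured 4.78, 4.61, 4.66 and 4.89 log2 with rilpivirine, against 4.79, 5.19, 4.70 and 4.59 log2 in controls. Control replicate 2 stood above the rest, and without it the difference of -0.082 ± 0.145 log2 (SE; 95% interval -0.40 to 0.24) became 0.043.

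Smad4, the common partner of both, measured 7.19, 6.88, 7.25 and 7.50 log2 in rilpivirine samples, against 7.63, 7.16, 7.19 and 7.25 log2 in control samples. Rilpivirine replicate 2 was the lowest sample and control replicate 1 the highest. The difference was -0.10 ± 0.16 log2 (SE), with a 95% interval of -0.45 to 0.25. Without rilpivirine replicate 2 or without control replicate 1 it was 0.0065 and 0.0078. Smad7, the inhibitory SMAD that recruits ubiquitin ligases to the receptor, measured 4.64, 4.24, 4.87 and 5.66 log2 with rilpivirine, against 5.33, 5.11, 4.97 and 5.06 log2 in controls. Rilpivirine replicates 1, 2 and 3 were below all controls and replicate 4 above them. The mean was 4.85 ± 0.60 log2 with rilpivirine and 5.12 ± 0.15 log2 in controls (SD, n = 4 each), a difference of -0.26 ± 0.25 log2 (SE; 95% interval -0.81 to 0.29, adjusted p = 0.903 in limma). The rilpivirine range of 1.42 log2 exceeded that of 97.1% of the genes tested.

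**Figure D2:**
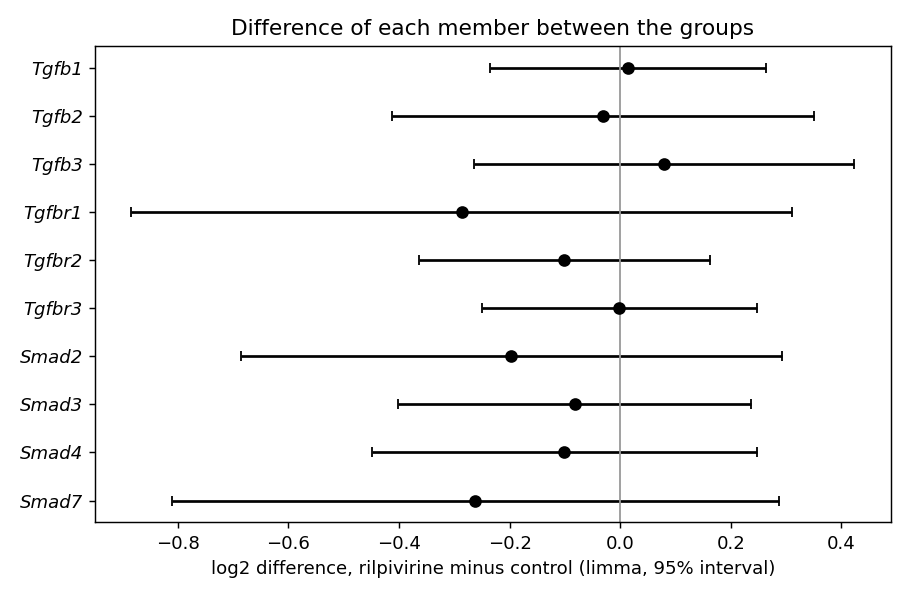
Log2 difference of each member, rilpivirine minus control (horizontal axis), with the 95% interval of the limma fit over 4 and 4 samples. Every interval includes 0, and those of Tgfbr1, Smad7 and Smad2 are the widest of the 10.

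The size of the differences in Tgfbr1 and Smad7 depended on single rilpivirine samples. Without rilpivirine replicate 4 the difference was -0.55 log2 for Tgfbr1 (unadjusted p = 0.0267, adjusted p = 0.535 in limma) and -0.53 log2 for Smad7 (unadjusted p = 0.00932, adjusted p = 0.531 in limma). In that setting 1524 genes had an unadjusted p under 0.05, against 867 with all samples. Without rilpivirine replicates 1 and 2, a pair left out together because of their place on the first principal component, the same differences were 0.23 for Tgfbr1 and 0.15 for Smad7. Those 2 replicates held the lowest values of both genes, so leaving them out could only raise the differences. After adjusting for the small nucleolar RNA level the differences were 0.066 for Tgfbr1 and 0.016 for Smad7. Smad4 moved likewise, to 0.067 without the 2 replicates and 0.091 with the adjustment. The part of that RNA class in these values was not tested otherwise. The rilpivirine range was the wider one in 5 of the 10 members (Tgfb3, Tgfbr1, Smad2, Smad4 and Smad7) and in 69.1% of all genes tested.

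**Figure D3:**
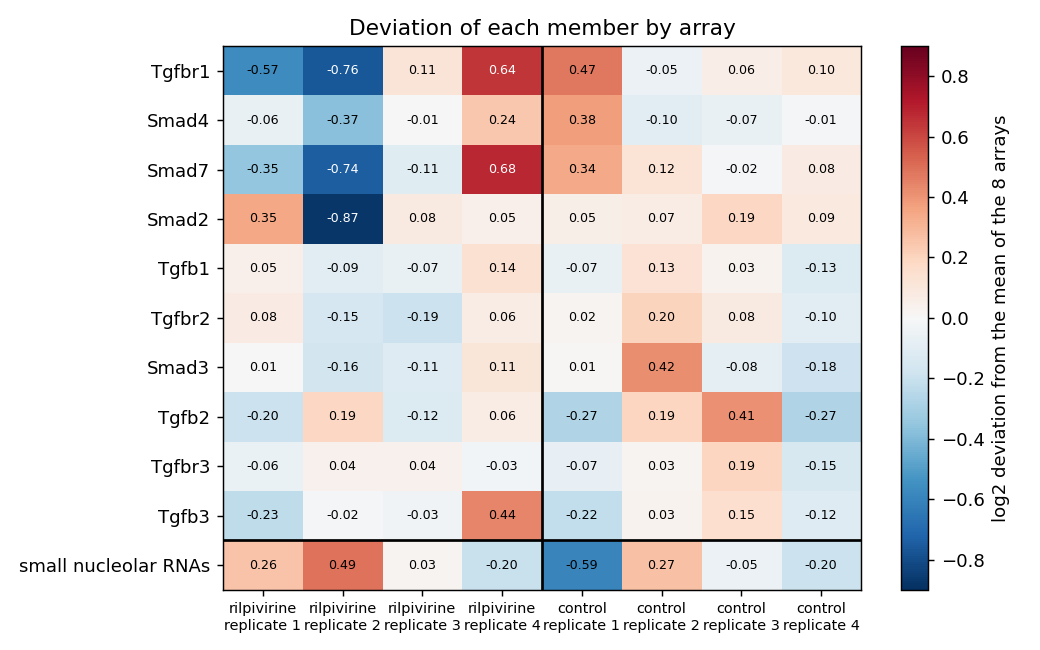
Deviation of each member (rows) from its mean over the 8 arrays, in log2, for the rilpivirine samples on the left of the line and the control samples on the right, with the small nucleolar RNA level in the bottom row. Rows were ordered after the values were seen. Tgfbr1 and Smad7 are lowest in rilpivirine replicate 2 (-0.76 and -0.74) and highest in rilpivirine replicate 4 (0.64 and 0.68), and Tgfb1 stays within 0.14 of its mean.

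Differences between members of the same role could hardly be tested with these samples. For each of 12 pairs within the ligands, the receptors and the SMADs, the difference between the members' log2 values in a sample was compared between the groups with an exact two-sided permutation test (70 arrangements), whose smallest possible p is 0.0286. A lone pair at that p would have an adjusted p of 0.343, so the absence of calls was nearly fixed by the design. The smallest p was 0.371, for Tgfbr2 against Tgfbr3, and all 12 adjusted p-values were at least 0.914. Tgfbr1 minus Tgfbr3 averaged 0.13 ± 0.65 log2 with rilpivirine and 0.41 ± 0.32 log2 in controls (SD, n = 4 each; exact permutation p = 0.457). Smad4 minus Smad7 averaged 2.35 ± 0.36 log2 with rilpivirine and 2.19 ± 0.11 log2 in controls (SD, n = 4 each; exact permutation p = 0.457). The SE of the difference was 0.36 and 0.19 log2 in these 2 pairs, so unequal responses of that order were not detectable with these samples. With each sample left out in turn, the difference between the groups ran from -0.55 (without rilpivirine replicate 4) to -0.066 (without rilpivirine replicate 2) for Tgfbr1 minus Tgfbr3. For Smad4 minus Smad7 it was 0.16 with all samples, 0.33 without rilpivirine replicate 4 (exact permutation p = 0.0286, the smallest possible, adjusted p = 0.343) and 0.064 without rilpivirine replicate 2.

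Across the 8 samples 1 of 45 pairs of members correlated past the adjusted threshold, and the other pairs below are given as values. Tgfbr1 and Smad7, the receptor and its inhibitor, had a Pearson r of 0.951 (permutation p = 0.000868, adjusted p = 0.0391 over 45 pairs of members) and a Spearman rho of 0.786 (permutation p = 0.0279, adjusted p = 0.251). It was the only pair past the threshold by Pearson's r, and 0 pairs passed by Spearman's rho. The r was 0.960 within the rilpivirine samples and 0.827 within the controls, and 0.879 without rilpivirine replicates 1 and 2, the samples farthest from the median of Tgfbr1. Of the genes tested, 0.794% were at least as like Tgfbr1 as Smad7 was, and 0.198% at least as like Smad7 as Tgfbr1 was. Smad4 did not pass the adjusted threshold with either, at r = 0.873 with Tgfbr1 (rho = 0.905; permutation p = 0.00895 for r and 0.00456 for rho, adjusted p = 0.0806 and 0.205) and r = 0.858 with Smad7 (rho = 0.619; permutation p = 0.0108 for r and 0.115 for rho, adjusted p = 0.0809 and 0.517). Without the 2 farthest samples these were 0.909 and 0.826. Such values were common on these arrays, as 5.31% of genes were at least as like Tgfbr1 as Smad4 was, and 3.44% at least as like Smad4 as Smad7 was. Smad4 was highest in control replicate 1 and lowest in rilpivirine replicate 2, the samples with the lowest and the highest small nucleolar RNA level, and the part of that level was not tested.

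The pairs among Tgfb1, its receptor Tgfbr2 and Smad3 had high values of r, picked out after the values were seen, and none passed the adjusted threshold. Tgfb1 had an r of 0.819 with Tgfbr2 (rho = 0.667; permutation p = 0.0180 for r and 0.0831 for rho, adjusted p = 0.115 and 0.467) and of 0.810 with Smad3 (rho = 0.833; permutation p = 0.00446 for r and 0.0154 for rho, adjusted p = 0.0670 and 0.251). Tgfbr2 and Smad3 had an r of 0.816 (rho = 0.690; permutation p = 0.00779 for r and 0.0694 for rho, adjusted p = 0.0806 and 0.446). Without the 2 farthest samples the 3 values of r were 0.763, 0.665 and 0.873. Of the genes tested, 1.05% were at least as like Tgfb1 as Tgfbr2 was, 1.20% at least as like Tgfb1 as Smad3 was and 1.63% at least as like Tgfbr2 as Smad3 was. Tgfb2 and its coreceptor Tgfbr3 also missed the threshold, with r = 0.871 (rho = 0.810; permutation p = 0.00372 for r and 0.0218 for rho, adjusted p = 0.0670 and 0.251), which was 0.736 without control replicates 3 and 1. Of the genes tested, 0.156% were at least as like Tgfb2 as Tgfbr3 was. Within the rilpivirine samples that pair had an r of 0.464 and within the controls one of 0.953. In all, 7 of 45 pairs had an unadjusted Pearson p under 0.05. When deviations from the group means were paired within groups only, 0 pairs passed after adjustment, and the r of these 7 pairs was between 0.814 and 0.945. The smallest permutation p these pairings allow is 0.00174, which Tgfbr1 with Smad4 had, at an adjusted p of 0.0781. A lone pair could not pass in that setting, so the absence of calls says little about stability.

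**Figure D4:**
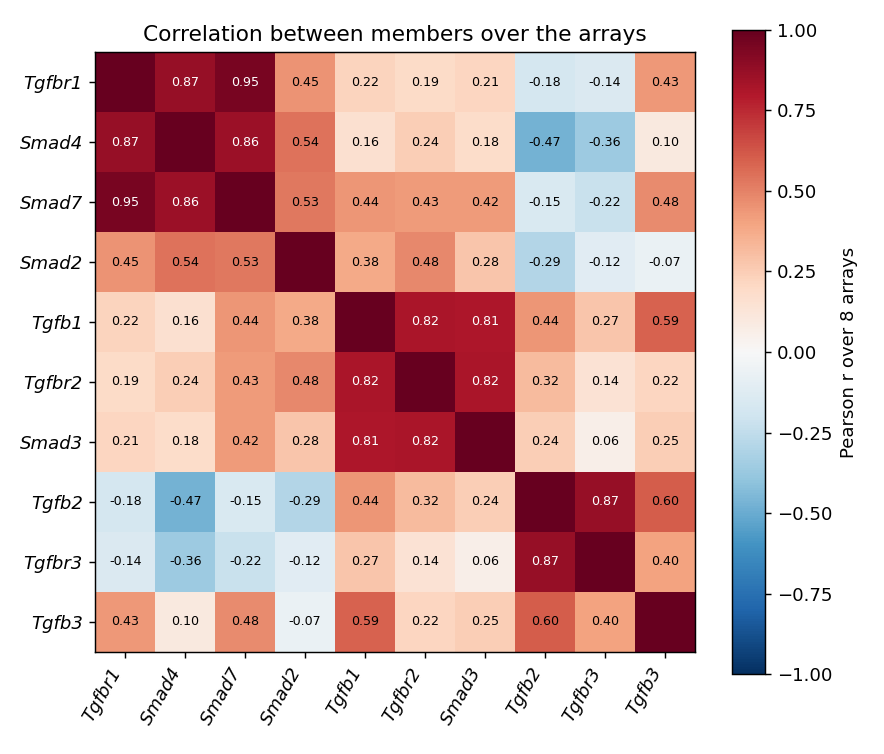
Pearson r over the 8 arrays for each pair of members, with the rows and columns ordered after the values were seen. The r is 0.86 to 0.95 among Tgfbr1, Smad4 and Smad7, 0.81 to 0.82 among Tgfb1, Tgfbr2 and Smad3, and 0.87 for Tgfb2 with Tgfbr3, and only Tgfbr1 with Smad7 passes the adjusted threshold.

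The genes with the most similar pattern over the 8 arrays, of 16634 others, are given as a description. For Tgfbr1 they were Gmfb (r = 0.993), Arhgap12 (r = 0.990) and Csnk1a1 (r = 0.988), with a rho of 0.976 for each. For Tgfb1 they were Ccdc86, Slurp2 and Fzd6, at r = 0.972, 0.967 and 0.966 (rho = 0.952, 0.929 and 0.929). For Smad3 they were Mir5135, 1700018B08Rik and Ncan, at r = 0.972, 0.953 and 0.947 (rho = 0.976, 0.810 and 0.952). The highest of so many values is high by selection.

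The promoters of Tgfbr1, which had the widest spread among the receptors, and of Tgfb1, Tgfbr2 and Smad3, whose values of r are given above, are shown to set the start regions of a ligand, its receptors and a messenger side by side. Windows for 5 of the 10 symbols were taken from the RefSeq table of promoters (build GRCm38.p6). Tgfb3 and Tgfbr3 had no window in it. Smad2, Smad4 and Smad7 were left out by choice, so their absence here does not mean that RefSeq lacks their starts. Each sequence is the 250 bases before the start of the gene, 5′ to 3′ on the gene's strand. Capitals mark CAGAC, the core of the SMAD binding element, and GGGCGG, the GC box bound by SP1-like factors, on either strand (GTCTG and CCGCCC); the motifs share no bases. The windows are chr7:25686752-25687001 on the plus strand for Tgfb1, chr4:47352972-47353221 on the plus strand for Tgfbr1 (the first of 2 starts), chr9:116175364-116175613 on the minus strand for Tgfbr2 and chr9:63757995-63758244 on the minus strand for Smad3.
Tgfb1: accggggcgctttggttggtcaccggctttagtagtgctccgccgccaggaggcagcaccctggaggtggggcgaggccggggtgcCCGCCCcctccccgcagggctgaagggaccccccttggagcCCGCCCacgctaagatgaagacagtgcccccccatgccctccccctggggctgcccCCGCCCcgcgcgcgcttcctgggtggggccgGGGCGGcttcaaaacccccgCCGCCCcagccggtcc
Tgfbr1: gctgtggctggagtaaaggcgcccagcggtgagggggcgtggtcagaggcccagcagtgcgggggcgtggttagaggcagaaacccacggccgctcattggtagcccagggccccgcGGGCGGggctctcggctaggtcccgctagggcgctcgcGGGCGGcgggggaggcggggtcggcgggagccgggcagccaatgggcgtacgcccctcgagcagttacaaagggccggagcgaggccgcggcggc
Tgfbr2: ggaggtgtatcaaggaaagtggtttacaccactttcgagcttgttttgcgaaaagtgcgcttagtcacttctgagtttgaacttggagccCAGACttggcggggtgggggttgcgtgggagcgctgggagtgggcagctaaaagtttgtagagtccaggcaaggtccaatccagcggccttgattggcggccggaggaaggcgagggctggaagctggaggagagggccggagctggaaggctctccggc
Smad3: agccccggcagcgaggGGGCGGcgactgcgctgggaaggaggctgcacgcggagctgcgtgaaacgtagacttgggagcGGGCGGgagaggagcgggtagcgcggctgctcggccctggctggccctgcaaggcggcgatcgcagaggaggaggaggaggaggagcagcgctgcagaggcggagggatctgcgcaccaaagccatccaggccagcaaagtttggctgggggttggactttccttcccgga

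Over 32851 windows of this length 42.2% held CAGAC and 32.7% held GGGCGG on either strand. The Tgfb1 window held 5 GC boxes, those of Tgfbr1 and Smad3 held 2 each, and none of these 3 held CAGAC. The Tgfbr2 window held 1 CAGAC and 0 GC boxes. The window of the second Tgfbr1 start (chr4:47385966-47386215, plus strand), not printed, also held 1 CAGAC and 0 GC boxes, and that of Tgfb2 (chr1:186705990-186706239, minus strand), not printed, held 2 CAGAC and 0 GC boxes. The share of G and C was 75.2% in Tgfb1, 74.8% in Tgfbr1, 69.2% in Smad3 and 58.4% in Tgfbr2. A match is a stretch of letters and not a measured site.

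The wider pathway was described with lists of 108 further genes, of which 103 had a probe set of their own and 98 were above the filter. Of these 0 passed the adjusted threshold in limma, 35 were above and 63 below 0, and the median difference was -0.046 log2. At an unadjusted p under 0.05 there were 1 higher and 5 lower, a share near the 5.21% of all genes. The groups did not overlap in 1 gene, Bmp4, against 3.04% of all genes. The list medians below moved with single samples. Without rilpivirine replicate 4 they were -0.089 for latency, -0.17 for related receptors, -0.078 for other SMADs, -0.14 for SMAD partners, -0.0021 for other ligands and -0.17 for target genes. Without rilpivirine replicate 2 they were -0.034, -0.053, 0.040, -0.057, 0.060 and -0.0098 in the same order.

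Genes that hold or release latent TGF-beta showed small differences, with 4 of 15 higher, 11 lower and a median of -0.053 log2. Furin, the protease that cleaves the TGF-beta precursor, measured 8.70, 8.42, 8.32 and 8.53 log2 with rilpivirine, against 8.94, 8.66, 8.89 and 8.62 log2 in controls. Only rilpivirine replicate 1 reached into the control range. The difference was -0.29 ± 0.13 log2 (SE; adjusted p = 0.890 in limma). Fmod, a matrix proteoglycan that binds TGF-beta, differed by -0.29 ± 0.14 (SE), Thbs1, the activator thrombospondin 1, by 0.26 ± 0.22 (SE), and Ltbp1, which tethers latent TGF-beta to the matrix, by -0.15 ± 0.13 (SE).

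Related receptors and coreceptors were 1 higher and 10 lower of 11 tested, with a median of -0.12 log2 and 0 at an unadjusted p under 0.05. Tgfbrap1, a protein that associates with the TGF-beta receptors, differed by -0.26 ± 0.16 log2 (SE), and the activin receptors Acvr1b and Acvr2b differed by -0.21 ± 0.14 and -0.31 ± 0.22 (SE). Bambi, a decoy receptor without a kinase domain, differed by -0.17 ± 0.15 (SE). Among the other SMADs, Smad9, which carries signals of bone morphogenetic proteins, measured 5.58, 4.73, 5.25 and 5.31 log2 with rilpivirine, against 5.89, 5.39, 5.78 and 5.72 log2 in controls. Rilpivirine replicate 1 alone lay above the lowest control. Its difference was -0.48 ± 0.18 log2 (SE; unadjusted p = 0.0232, adjusted p = 0.890 in limma), while Smad1, Smad5 and Smad6 differed by 0.14, 0.018 and -0.040.

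Partners and regulators of SMADs were 8 higher and 16 lower of 24, with a median of -0.068 log2. Zfyve9, the anchor protein SARA that presents SMAD2 to the receptor, measured 5.15, 4.96, 5.58 and 5.69 log2 with rilpivirine, against 6.16, 5.39, 5.81 and 5.81 log2 in controls. Rilpivirine replicates 1 and 2 were the lowest samples, as in Tgfbr1. The difference was -0.45 ± 0.20 log2 (SE; adjusted p = 0.890 in limma). Smurf2 and Wwp1, ubiquitin ligases that act with SMAD7, differed by -0.38 ± 0.20 and -0.50 ± 0.30 (SE). Pmepa1, a TGF-beta-induced inhibitor of the pathway, differed by -0.45 ± 0.24 (SE) and had its lowest value, 3.73 log2, in rilpivirine replicate 2 and its highest, 5.08 log2, in rilpivirine replicate 4, the samples at the 2 ends of Smad7.

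Other ligands of the family and their antagonists had higher means in 13 of 21 genes and lower means in 8, with a median of 0.059 log2. Gdf10, also called BMP3B, measured 4.89, 4.52, 5.13 and 5.27 log2 with rilpivirine, against 5.90, 5.67, 5.23 and 5.35 log2 in controls. Rilpivirine replicate 4 alone overlapped the controls. The difference was -0.58 ± 0.19 log2 (SE; unadjusted p = 0.0119, adjusted p = 0.851 in limma). Bmp4, a bone morphogenetic protein, measured 4.11, 4.45, 4.48 and 4.28 log2 with rilpivirine, against 4.74, 4.53, 4.66 and 4.76 log2 in controls. All rilpivirine values were below all controls, with a difference of -0.35 ± 0.12 log2 (SE; unadjusted p = 0.0162, adjusted p = 0.855 in limma). Lefty1, an antagonist of nodal signals, was dim and differed by 0.41 ± 0.16 (SE; adjusted p = 0.890 in limma), and Grem1, an antagonist of bone morphogenetic proteins, by 0.28 ± 0.15 (SE).

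Of 23 target genes of TGF-beta tested, 7 had higher and 16 had lower means; the median was -0.044 log2, and 0 genes were at an unadjusted p under 0.05. Leaving out control replicate 4 gave a median of -0.13, and leaving out both rilpivirine replicates 1 and 2 gave 0.045. Ccn2, connective tissue growth factor, measured 5.26, 5.27, 6.02 and 5.14 log2 with rilpivirine, against 5.97, 5.44, 5.73 and 5.40 log2 in controls. Rilpivirine replicate 3 was above all controls and the other rilpivirine samples below them. The difference was -0.21 ± 0.20 log2 (SE). Klf10, an early TGF-beta-induced transcription factor, measured 5.39, 5.30, 6.00 and 6.64 log2 with rilpivirine, against 6.19, 5.88, 6.57 and 6.22 log2 in controls, and differed by -0.38 ± 0.27 (SE). Its order within the rilpivirine group, replicate 2 lowest and replicate 4 highest, was that of Tgfbr1. Gadd45b, a stress-induced target, and Pdgfb, a ligand of stellate cell growth, differed by -0.19 ± 0.12 and -0.15 ± 0.12 (SE). Tgfbi, a matrix protein named for its induction by TGF-beta, differed by -0.044 ± 0.152 (SE), and Col1a1, a chain of type I collagen, by 0.0075 ± 0.2632 (SE).

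**Figure D5:**
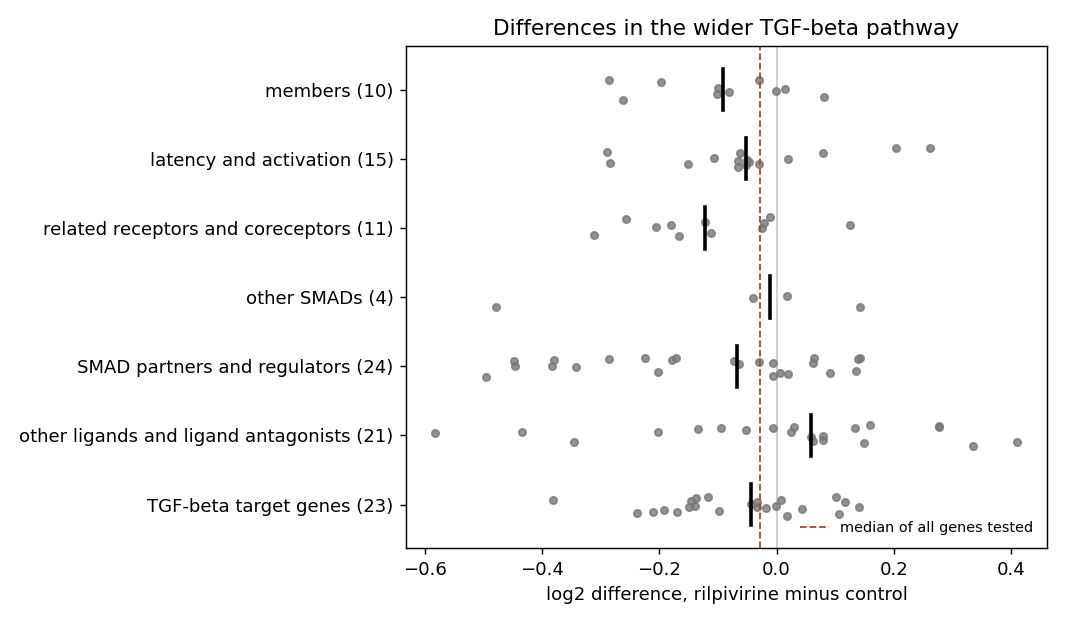
Log2 difference of each gene tested, rilpivirine minus control (horizontal axis), for the 10 members and for the lists of the wider pathway, with the number tested in brackets, the median of each list as a black line and the median of all genes tested, -0.028, as a dashed line. List medians lie between -0.12 for related receptors and coreceptors and 0.059 for other ligands and antagonists.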

How the data were processed

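Total RNA of snap-frozen liver was labelled with a whole-transcript kit and hybridized to an array for each of 8 samples, per the labels' protocols. The authors deposited log2 expression values of 41345 probe sets, made with RMA, per the submitters' processing notes, which also name limma; no version or genome build is stated in those notes as used here. RMA puts the probe values of all arrays on a shared distribution before they are summarized, so a change in total mRNA could not be seen. The deposited probe set values still differed slightly in distribution, with array medians of 3.33 to 3.45 log2.

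Names of probe sets came from the platform annotation (23521 with 1 symbol, 1814 with several, 16010 with none listed). Of several single-symbol probe sets of a gene, the brightest on average represented it. Of the 22180 genes, the 5545 that averaged below 2.72 log2 (the 25th percentile) were not fitted. Groups were compared in limma 3.58.1 (lmFit, eBayes; R 4.3.3) without covariates, with Benjamini-Hochberg adjustment over all genes tested. The same procedures were tested on simulated data. Figures were drawn with matplotlib 3.10.9. Precision is limited by the number of arrays, 4 a group.

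The members and lists were chosen with earlier results of these data known. The genes named were the 10 members, up to 4 of each list with the smallest p, Ccn2, Tgfbi and Col1a1, and the 3 genes most like each of Tgfb1, Tgfbr1 and Smad3. The alternatives were other moderation, array weights, centring, a further quantile normalization, other filters, the mean of all probe sets, the replicate number as a block, samples left out, and a small nucleolar RNA covariate. Deviations of same-numbered samples from their group means correlated at -0.25, 0.46, -0.09 and 0.07, so the numbers were not taken to pair samples. Listed genes without a single-symbol probe set were not analysed here.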

Additional observations from a re-analysis of the deposited data

Results flagged for a closer look

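Among the members and the named genes of the wider pathway, groups of 4 samples were searched for a sample whose gap to its nearest neighbour made up most of the group's range (Dixon's criterion), which chance alone meets in about 1 of 20 groups. Of 72 groups, 4 met it, and none of them belonged to the 10 members. Acvr1b measured 5.53 log2 in rilpivirine replicate 4, against 5.14 to 5.18 log2 in the rest of that group. Ccn2 measured 6.02 log2 in rilpivirine replicate 3, against 5.14 to 5.27 log2 in the others. Bambi measured 5.18 log2 in control replicate 4, against 5.62 to 5.70 log2 in the other controls. Gadd45b measured 5.11 log2 in control replicate 1, against 4.83 to 4.87 log2 in the rest.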

How the results depend on the processing

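In each of the 18 alternatives 0 genes passed the adjusted threshold, and so did 0 members (smallest adjusted p 0.531). Pairs of members were tested again in 11 of them; 0 passed, and the smallest adjusted p, 0.343, is the lowest a lone pair could reach, so this says nothing about stability. Of 179 alternative values of member differences, 155 kept their direction and 24 changed sign. Many of the 155 could not change. Other moderation, other filters and the replicate block leave a member's difference as it is. So does the mean of all probe sets, as each member has 1. The 155 therefore overstate stability. List medians did not all keep their sign. After a further quantile normalization the medians were 0.013 for latency, 0.0045 for SMAD partners, 0.016 for target genes and 0.012 for other SMADs. With the small nucleolar RNA covariate they were 0.0024 for latency and 0.0050 for other SMADs, and with array weights 0.018 for other SMADs. With samples left out in turn the medians ran from -0.089 to -0.022 for latency, -0.17 to -0.053 for related receptors, -0.078 to 0.040 for other SMADs, -0.14 to -0.053 for SMAD partners, -0.0021 to 0.091 for other ligands and -0.17 to -0.0098 for target genes, which had 0.045 without rilpivirine replicates 1 and 2 together. With samples left out in turn, the count at an unadjusted p under 0.05 ran from 578 to 1524. The differences then ran from -0.029 to 0.062 for Tgfb1, -0.13 to 0.10 for Tgfb2, -0.054 to 0.17 for Tgfb3, -0.050 to 0.063 for Tgfbr3, -0.35 to 0.061 for Smad2, -0.16 to 0.043 for Smad3 and -0.20 to 0.0078 for Smad4, while Tgfbr1 (-0.55 to -0.081), Tgfbr2 (-0.15 to -0.051) and Smad7 (-0.53 to -0.058) kept their sign. Differences between members ran from -0.074 to 0.15 for Tgfb1 minus Tgfb2, -0.17 to 0.025 for Tgfb1 minus Tgfb3, -0.25 to 0.10 for Smad2 minus Smad3, -0.25 to 0.055 for Smad2 minus Smad4, -0.16 to 0.29 for Smad2 minus Smad7 and -0.10 to 0.19 for Smad3 minus Smad4, and, without a change of sign, from -0.55 to -0.066 for Tgfbr1 minus Tgfbr3 and 0.064 to 0.33 for Smad4 minus Smad7. Without rilpivirine replicates 1 and 2 together, Tgfbr1, Tgfbr3, Smad4 and Smad7 differed by 0.23, 0.0071, 0.067 and 0.15, Tgfbr1 minus Tgfbr2 and minus Tgfbr3 by 0.35 and 0.23, Smad2 minus Smad3 and minus Smad7 by 0.0092 and -0.19, Smad3 minus Smad4 and minus Smad7 by -0.11 and -0.20, and Smad4 minus Smad7 by -0.085. With the small nucleolar RNA covariate Tgfbr1, Smad4 and Smad7 differed by 0.066, 0.091 and 0.016. After a further quantile normalization Tgfbr3 differed by 0.075, Tgfb1 minus Tgfb3 by 0.014 and Smad3 minus Smad4 by -0.023. The causes of these changes were not tested. The 1 correlated pair of members past the threshold became 0 after that normalization. The count was also 0 with deviations from the group means, where a lone pair could not reach the threshold. The r of Tgfbr1 with Smad7 was 0.945 with those deviations. With the replicate block the 867 genes at an unadjusted p under 0.05 became 1071, and no call changed. Each replicate number occurs equally in both groups, so the block cannot change a difference. Tgfbr1 therefore stayed at -0.29 (adjusted p = 0.855 in limma). Only rilpivirine replicate 2 and control replicate 2 correlated best with their own number in the other group.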
